A study of Mus musculus with 6 samples.

Results

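The immediate early and AP-1 genes examined here were Fos, Fosb, Fosl1, Fosl2, Jun, Junb, Egr1, Atf3, Ier2 and Dusp1, found by their symbols in a table of counts with 20071 Ensembl IDs. Each of the 10 symbols had 1 row, and all 10 were among the 13733 genes that passed the filter on low counts and were tested. RNA was sequenced from mesenchymal stem cells (MSCs) of the femurs of 6-week-old C57BL/6J mice after 7 days in osteogenic medium holding dexamethasone at 100 nM, β-glycerophosphate at 5 mM and ascorbic acid at 50 μg/mL. Controls (labelled WT) were Pcif1 fl/fl, with loxP sites around exons of Pcif1 on both alleles and no Cre, and conditional knockouts (labelled CKO) were Prrx1-Cre;Pcif1 fl/fl. There were 3 libraries of each genotype, although the design text speaks of duplicates. Prrx1-Cre acts in limb mesenchyme and its descendants, so other cells of the cultures are not its targets. PCIF1 is the enzyme that methylates an adenosine at the first transcribed position next to the mRNA cap (m6Am).

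Immediate early genes are transcribed soon after a cell meets a growth factor, cytokine or stress, without new protein synthesis, and their mRNAs are short-lived. Fos and Jun family proteins pair through leucine zippers to form AP-1, a transcription factor that in osteoblast-lineage cells acts on proliferation and on matrix and protease genes. MAP kinases switch these genes on, and the phosphatase encoded by Dusp1, itself an immediate early gene, switches the kinases off again.

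Libraries held 20258209 to 28227696 counts. Control replicate 3 stood apart from the others: mitochondrial genes took 3.63% of its counts against 1.40% to 1.57% in the other 5 libraries, and it was the highest or the lowest of the 6 libraries in 64.2% of genes tested. Levels below are counts scaled to library size with the TMM method (CPM). Pcif1 did not separate the genotypes (42.8, 41.7 and 39.3 CPM in controls 1 to 3, and 39.2, 37.8 and 39.7 CPM in knockouts 1 to 3), and counts per gene do not show whether its floxed exons were lost. Xist lay at 232 to 443 CPM in controls and 0.722 to 1.79 CPM in knockouts, so the sex make-up of the cultures and the genotype cannot be told apart. All 15 mesenchymal markers examined were tested, with a summed level of 12801 to 16202 CPM in controls and 16215 to 17406 CPM in knockouts. All 15 macrophage markers were tested too, and their summed level was 32228 to 35641 CPM in controls and 33205 to 36380 CPM in knockouts. None of the 15 macrophage markers was under 1 CPM in every library, and whether a change in a gene came from MSCs or from macrophages was not tested. In bulk RNA, fewer cells of a type and less RNA per cell cannot be told apart.

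Of the 10 genes, 6 rose in the conditional knockout cultures, namely Egr1, Atf3, Fosl1, Fos, Junb and Ier2, and none fell. A gene was called at an adjusted p-value under 0.05 from edgeR's quasi-likelihood test, and 2.88% of all genes tested were called higher and 4.51% lower, or 7.40% in either direction. The number lower was 0 with DESeq2 and limma-voom too. Because the 10 genes were chosen with earlier results of these data known, their contrasts with all genes are a description. At an unadjusted p under 0.05, 7 of the 10 were higher and 0 lower, against 9.56% higher and 11.8% lower over all genes tested. Log2 fold changes of the 10 genes ran from 0.067 to 2.10 with a median of 0.63, against a median of 0.0017 over all genes tested. In 7 of the 10, the 6 called and Dusp1, every knockout library lay above every control library, which was so for 15.0% of genes tested, while the reverse, seen in 15.7% of genes tested, was so for none of them. With a log2 fold change of at least 1 also required, 1.03% of genes tested were called higher, and of the 10 genes Egr1 alone was, with Atf3 just under at 0.9985.

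**Figure D1:**
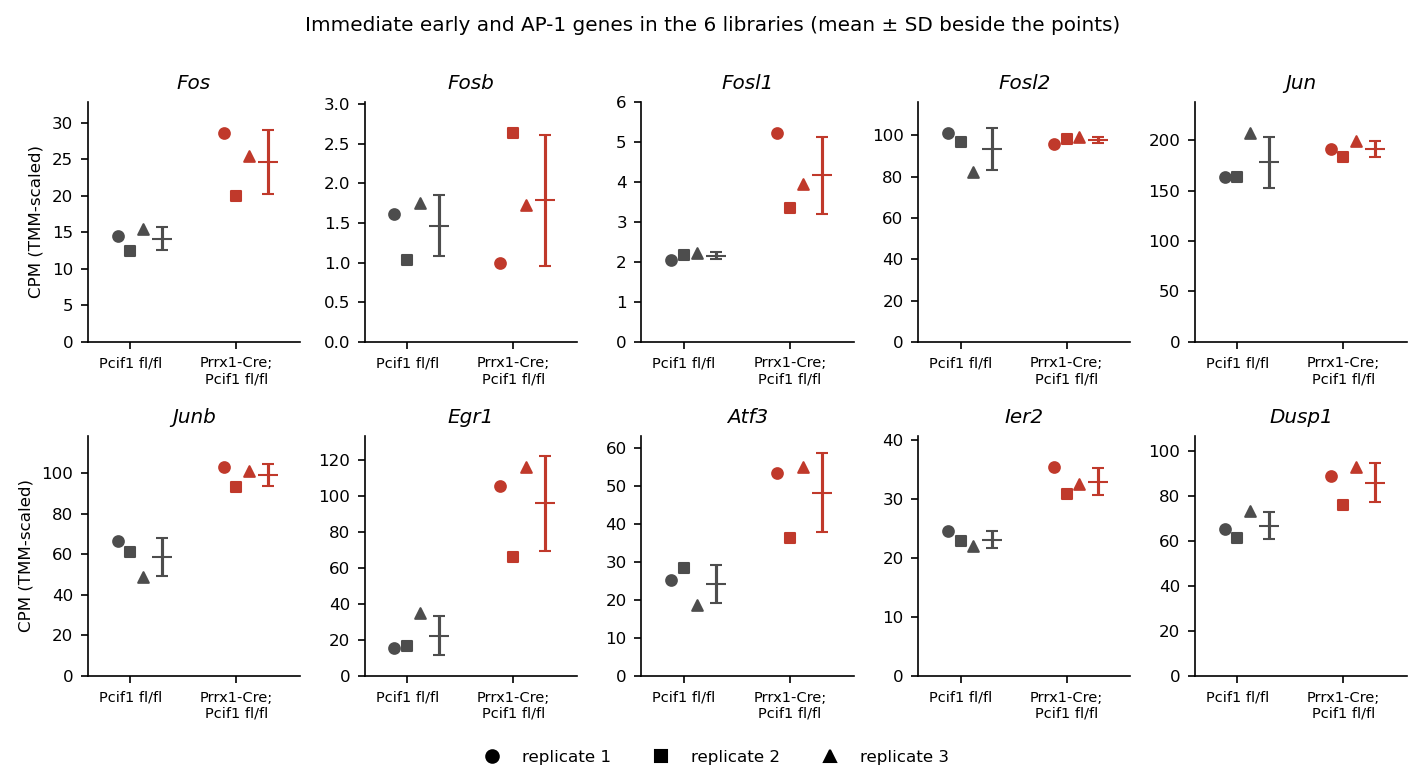
CPM of each gene by genotype, with 1 point per library, the replicate number as the symbol and the mean ± SD of 3 libraries beside the points. Knockout points lie above all control points for Fos, Fosl1, Junb, Egr1, Atf3, Ier2 and Dusp1, and the groups overlap for Fosb, Fosl2 and Jun.

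Egr1, which encodes a zinc finger transcription factor, had the largest difference of the 10. Its level was 15.5, 16.9 and 34.9 CPM in controls 1 to 3 and 105.65, 66.2 and 116 CPM in knockouts 1 to 3. Control replicate 3 was the highest control, yet the lowest knockout was still 1.90 times its level. Means were 22.4 ± 10.8 CPM in controls and 96.0 ± 26.3 CPM in knockouts (SD, n = 3 each), or 2.10 ± 0.33 (SE) as a log2 difference (edgeR adjusted p = 0.00705). Egr1 was the one gene of the 10 to keep its call under each of 13 alternatives, with log2 fold changes from 1.89 to 2.57 and edgeR, DESeq2 and limma-voom adjusted p-values from 4.29e-10 to 0.0389.

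Within the Fos family, whose proteins cannot pair with themselves and bind DNA as partners of Jun proteins, Fos and Fosl1 rose and Fosb and Fosl2 did not pass the test. Fos (chromosome 12, 85473890 to 85477273, GRCm38) was at 14.5, 12.4 and 15.4 CPM in controls 1 to 3 and 28.6, 20.0 and 25.4 CPM in knockouts 1 to 3. The groups did not overlap, and the smallest gap was between knockout replicate 2 and control replicate 3. The log2 difference of Fos was 0.81 ± 0.16 (SE, edgeR adjusted p = 0.0191). Fosl1, which encodes FRA1, lies on chromosome 19 from 5447547 to 5455946. Per length it was less abundant than Fos, and it was at 2.05, 2.17 and 2.22 CPM in controls and 5.22, 3.33 and 3.94 CPM in knockouts, and its 6 libraries held 47 to 116 counts. Knockout replicate 1 was the highest and no knockout reached down to the controls, which gave 0.96 ± 0.22 (SE) as a log2 difference (edgeR adjusted p = 0.0349).

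A limit of Fosl1 is its overlap, over 57.2% of exonic sequence, with the antisense gene Ccdc85b, and the use of strand in counting is not given in the sources used here. Ccdc85b itself was at 27.5, 24.4 and 8.60 CPM in controls and 21.7, 19.9 and 21.3 CPM in knockouts, so its groups overlapped. Fosl2 (chromosome 5, 32135801 to 32157842), which encodes FRA2, was at 101.16, 96.9 and 82.1 CPM in controls and 96.0, 98.2 and 99.1 CPM in knockouts, or 0.067 ± 0.10 (SE) as a log2 difference (edgeR adjusted p = 0.747). The 3 knockouts sat inside the range of the controls, and control replicate 3 was the lowest library. Fosb (chromosome 7, 19302696 to 19310051) had few counts, with 22 to 53 counts per library, 1.62, 1.03 and 1.76 CPM in controls and 0.990, 2.64 and 1.73 CPM in knockouts. Both the highest and the lowest of the 6 Fosb values were knockouts, and its log2 fold change of 0.28 had a standard error of 0.38 (adjusted p = 0.722 by edgeR).

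Among the Jun genes, Junb rose and Jun did not pass the test. Junb (chromosome 8, 84974484 to 84978718) was at 66.7, 60.9 and 48.6 CPM in controls and 102.90, 92.9 and 101.22 CPM in knockouts, so that the lowest knockout was 1.39 times the highest control. Its log2 difference was 0.75 ± 0.13 (SE, edgeR adjusted p = 0.00916), and 7.52% of its exonic sequence is shared with the antisense gene Prdx2, whose genotype groups overlapped. Jun (chromosome 4, 95049034 to 95052222) was the most abundant of the 10 genes per length, at 163.88, 163.40 and 207.43 CPM in controls and 191.26, 183.22 and 199.90 CPM in knockouts. Control replicate 3 was above every knockout while controls 1 and 2 were below every knockout. The log2 difference of Jun was 0.10 ± 0.11 (SE, edgeR adjusted p = 0.651) and became 0.23 (adjusted p = 0.0203) without control replicate 3. Junos, an antisense gene, covers 7.28% of Jun exonic sequence.

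Atf3 encodes a bZIP factor of the ATF/CREB family that is induced by many stresses and can pair with Jun proteins. Its level (chromosome 1, 191170296 to 191218039) was 25.2, 28.6 and 18.8 CPM in controls and 53.6, 36.4 and 55.0 CPM in knockouts. Control replicate 3 was the lowest of the 6 and knockout replicate 2 the lowest knockout, which was 1.28 times the highest control. Means were 24.2 ± 4.95 CPM in controls and 48.4 ± 10.3 CPM in knockouts (SD, n = 3 each), or 0.9985 ± 0.20 (SE) as a log2 difference (edgeR adjusted p = 0.0201). Ier2, a small nuclear protein of the immediate early response (chromosome 8, 84661331 to 84662852), moved least of the genes called. Its values were 24.6, 22.8 and 21.9 CPM in controls and 35.4, 30.9 and 32.5 CPM in knockouts, without overlap. The log2 difference of Ier2 was 0.51 ± 0.11 (SE, edgeR adjusted p = 0.0242).

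Dusp1 (chromosome 17, 26505590 to 26562128) is both an immediate early gene and a classical target of the glucocorticoid receptor, and the medium of both genotypes held dexamethasone. Its level was 65.3, 61.3 and 73.4 CPM in controls and 88.8, 76.0 and 92.7 CPM in knockouts. All knockouts were above all controls, with knockout replicate 2 at only 1.04 times the level of control replicate 3. The log2 difference was 0.36 ± 0.11 (SE, edgeR adjusted p = 0.0988). Without control replicate 3 it was 0.44 (adjusted p = 0.00162 by edgeR).

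**Figure D2:**
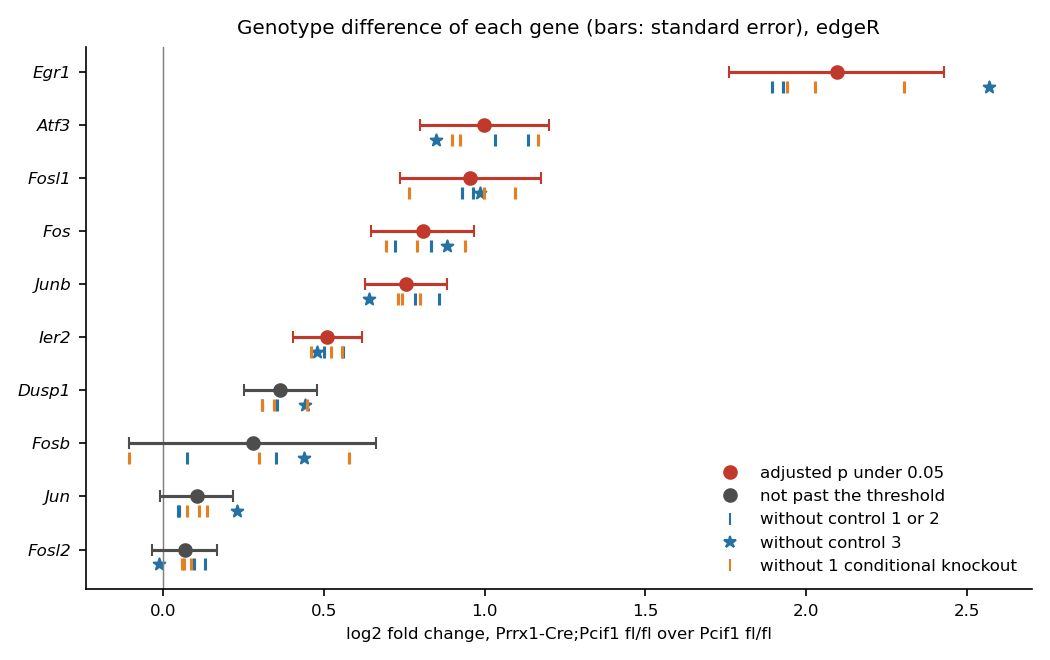
Log2 fold changes of the 10 genes from edgeR with all 6 libraries (points, with standard errors as bars) and below each point the values with 1 library left out. The point of Egr1 lies at 2.10 and those of Atf3, Fosl1, Fos, Junb and Ier2 between 0.51 and 0.9985. Values fall below 0 only for Fosb without knockout replicate 2 and for Fosl2 without control replicate 3.

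Calls other than that of Egr1 changed when libraries were left out. With control replicate 1 or 2 left out, 3 of the 10 genes were called in each case (Ier2, Junb and Egr1, or Atf3, Junb and Egr1), and with knockout replicate 1 or 3 left out 1 was (Egr1). Shares of all genes called higher in these fits were 2.10% and 1.41% without control replicates 1 and 2, and 1.06% and 1.07% without knockout replicates 1 and 3. Without knockout replicate 2, all but Ier2 of the 6 kept their call, with 1.23% of all genes called higher. The log2 fold change of Fos stayed between 0.69 and 0.94, Fosl1 between 0.76 and 1.09, Junb between 0.64 and 0.86, Atf3 between 0.85 and 1.17 and Ier2 between 0.46 and 0.56 over all alternatives. Without control replicate 3, 8 of the 10 genes were called higher, with Jun and Dusp1 added, while the share of all genes called higher was 11.1%.

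Promoters of the Fos, Junb and Jun genes are shown because Fos and Junb rose and Jun, the most abundant of the 10 genes per length, did not pass the test. Each sequence is the 250 bases before the transcript start that RefSeq gives on GRCm38.p6, read 5′ to 3′ on the gene's strand, and none of the 3 windows holds an exon of GENCODE M21. Capitals mark TGACG on either strand (CGTCA on the other), a half-site of the cAMP response element bound by CREB and ATF proteins, and TATAA on either strand, the core of a TATA box.
Fos: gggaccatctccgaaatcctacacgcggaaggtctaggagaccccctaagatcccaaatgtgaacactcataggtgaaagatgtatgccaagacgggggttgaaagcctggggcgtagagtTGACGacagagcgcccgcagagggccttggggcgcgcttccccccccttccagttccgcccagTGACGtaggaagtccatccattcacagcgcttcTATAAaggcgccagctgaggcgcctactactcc
Junb: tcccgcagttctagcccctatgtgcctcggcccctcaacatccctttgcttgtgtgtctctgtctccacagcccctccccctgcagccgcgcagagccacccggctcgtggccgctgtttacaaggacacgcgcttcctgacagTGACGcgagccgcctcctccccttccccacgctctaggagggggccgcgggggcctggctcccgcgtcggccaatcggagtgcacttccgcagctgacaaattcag
Jun: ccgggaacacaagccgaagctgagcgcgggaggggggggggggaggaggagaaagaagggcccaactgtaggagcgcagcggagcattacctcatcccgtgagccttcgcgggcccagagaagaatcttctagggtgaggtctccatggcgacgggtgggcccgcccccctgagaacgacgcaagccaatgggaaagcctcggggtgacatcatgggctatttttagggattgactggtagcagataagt
The Fos window is chr12:85473640-85473889 on the plus strand, the Junb window chr8:84978749-84978998 on the minus strand and the Jun window chr4:95052223-95052472 on the minus strand.

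RefSeq windows were found for 7 of the 10 genes (Atf3, Dusp1, Fos, Fosb, Fosl2, Jun and Junb). Egr1, Fosl1 and Ier2, which all rose, had no window. TGACG was in 5 of the 7, against 17.8% of 32851 windows of the same length. Fos held it at bases -129 and -66 counted back from the transcript start, and Junb at -106. The 5 windows were those of Fos, Junb, Atf3, Dusp1 and Fosb, of which Fos, Junb and Atf3 rose, and the windows of Jun and Fosl2 had no exact match. Those of Atf3, Dusp1, Fosb and Fosl2 each hold GENCODE exon sequence of their own gene, so 3 of the 5 matching windows are not wholly upstream of the gene model. The full element TGACGTCA, which contains TGACG on both strands, was in the Dusp1 window alone, against 1.55% of all windows. Only exact matches were counted, which leaves out TGACATCA in the Jun window, different from TGACGTCA by a single base. TATAA was found in the Fos window, against 22.8% of all windows, CCAAT in those of Jun and Junb, against 33.8%, and the AP-1 site TGANTCA, against 6.75%, and the CArG box bound by SRF, against 1.47%, in none of the 7. Only 250 bases per gene were searched, so sites further upstream would be missed. The first transcribed base was A for 3 of the 7 (Fos, Fosb and Dusp1), against 34.4% of all windows. Matches of letters are a description and do not show that a factor binds. The sequences shown were chosen by the results for these genes, so their contrast is not a test.

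Compared per kb of merged exons, the 10 genes spanned a wide range of levels. In controls Jun led at 55.9 ± 7.93 CPM per kb (SD, n = 3), followed by Junb at 25.5, Dusp1 at 20.1, Ier2 at 15.2, Atf3 at 11.2, Fosl2 at 9.65, Fos at 6.00, Egr1 at 5.00, Fosl1 at 1.06 and Fosb at 0.235. The control ranges of 3 neighbouring pairs overlapped (Junb and Dusp1, Atf3 and Fosl2, Fos and Egr1). In knockouts Jun still led at 60.0 ± 2.61 CPM per kb (SD, n = 3), with Junb at 43.0 and Dusp1 at 25.9, and Egr1 stood at 21.4 and no longer differed beyond the spread from its neighbour Ier2 at 21.6, whose range also overlapped that of Atf3 at 22.4. The knockout range of Dusp1 overlapped that of Atf3 as well. Fos at 10.5 and Fosl2 at 10.1 overlapped in knockouts, and Fosl1 at 2.05 and Fosb at 0.286 remained the lowest. Among the 4 Fos family genes, Fosl2 and Fos had the highest levels per kb in both genotypes.

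Knockout replicate 2 was the lowest of the 3 knockouts for 8 of the 10 genes (all but Fosb and Fosl2), which was so for 34.5% of genes tested. Its level was 0.597 times the mean of knockouts 1 and 3 for Egr1, 0.671 times for Atf3, 0.728 times for Fosl1 and 0.741 times for Fos. Fosb went the other way, at 1.94 times that mean from 53 counts. The mitochondrial share of this library was 1.45%, against 1.44% and 1.48% in the other knockouts. Its macrophage markers summed to 33321 CPM, between the 36380 and 33205 CPM of knockouts 1 and 3. Other lists were lower in it than in knockouts 1 and 3, with osteoblast markers at 17899 against 26667 and 26467 CPM, the AP-1 targets at 17088 against 24916 and 24603 CPM, the other immediate early genes at 3322 against 3486 and 3453 CPM, endothelial markers at 59.7 against 66.75 and 65.0 CPM, mesenchymal markers at 16215 against 17406 and 17003 CPM, adipocyte markers at 671 against 871 and 780 CPM and cell cycle genes at 365 against 394 and 410 CPM. Others were higher in it, with the remaining AP-1 members and partners at 1409 against 1264 and 1263 CPM, feedback inhibitors of MAP kinases at 869.81 against 851.92 and 842.65 CPM, glucocorticoid-induced genes at 2622 against 2489 and 2412 CPM and heat shock genes at 4271 against 4167 and 4065 CPM. The osteoblast markers and the AP-1 targets share genes, Ibsp and Bglap among them, so their sums are not independent. In controls these sums were 14614 to 20747 and 13932 to 21702 CPM, and knockout replicate 2 lay inside both ranges. Over all genes, the chi-square per gene was 10.55 and 10.05 between this library and knockouts 1 and 3, 2.86 between those 2 and 10.2 between controls 1 and 2. The part of these differences in the low values of the 8 genes was not tested. This pattern was noticed after the values were seen and has no test.

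Control replicate 3 had no replicate of its own, and its differences are a description. Compared with the mean of controls 1 and 2, Egr1 stood at 2.15 times that level in it, the only one of the 10 genes that differed 2-fold, where 0.910% of genes tested were at least 2-fold higher and 2.91% at least 2-fold lower. Jun stood at 1.27 times that mean and was the only gene of the 10 to be highest of all 6 libraries in it, as were 32.1% of genes tested. Atf3, Fosl2, Ier2 and Junb were lowest of all 6 libraries in it, again against 32.1% of genes tested. Atf3 stood at 0.700 times and Junb at 0.761 times the mean of controls 1 and 2. Against the mean of all 5 other libraries, which includes the knockouts, Egr1 was lower in it, at -0.87 as a log2 ratio, and with a pseudocount of 5 CPM in place of 0.5 CPM none of the 10 genes was 2-fold above controls 1 and 2.

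**Figure D3:**
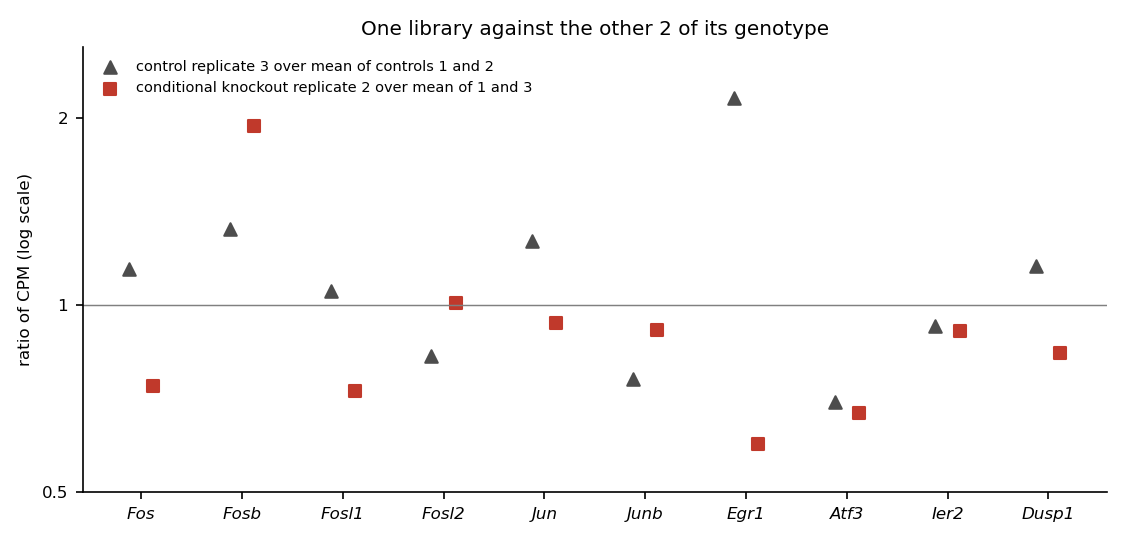
Ratio of CPM, on a log scale, of control replicate 3 to the mean of controls 1 and 2 (triangles) and of knockout replicate 2 to the mean of knockouts 1 and 3 (squares), for each of the 10 genes. Egr1 is at 2.15 in control replicate 3 and 0.597 in knockout replicate 2, and Fosb is at 1.94 in knockout replicate 2.

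Over the 6 libraries, the levels of Fos and Egr1 (Pearson r = 0.95 of log2 CPM), Fos and Fosl1 (r = 0.97) and Junb and Ier2 (r = 0.97) had high correlations, and Fos with Fosl2 (r = 0.19) and with Fosb (r = 0.027) low ones. These 6 points hold 2 genotypes, so a genotype difference alone can give a high r. Outside the 10 genes, those most like Fos among genes with a mean of at least 10 CPM were Cenpt, Csgalnact1, Ybx3, Capn6 and Rps6ka2, with r from 0.978 to 0.987.

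Genes around AP-1 were read from 7 related lists with 147 genes tested beyond the 10, of which 22 rose and 5 fell. Over all genes, 2.88% were called higher and 4.51% lower. The lists were written with earlier results of these data known, so their counts are a description. Without control replicate 3, 48 were called higher and 15 lower, where 11.1% of all genes were called higher and 1447 of 13905 lower, and the counts of each list in that fit are given with it. Of 44 other immediate early genes tested, 9 rose and none fell in edgeR, against the shares of 2.88% higher and 4.51% lower over all genes, and their median log2 fold change was 0.28. At an unadjusted p under 0.05, 20 were higher and 4 lower, against 9.56% and 11.8% of all genes, and the number lower was 1 with DESeq2 and 0 with limma-voom. Without control replicate 3, 21 were called higher and 3 lower. Ptgs2, the inducible prostaglandin synthase, was at 3.19, 5.55 and 5.59 CPM in controls and 21.9, 17.0 and 25.2 CPM in knockouts, or 2.15 ± 0.24 (SE) as a log2 difference (edgeR adjusted p = 0.00124). Egr2, a zinc finger factor related to Egr1, was at 2.79, 2.46 and 2.80 CPM in controls and 11.2, 7.67 and 12.5 CPM in knockouts, or 1.96 ± 0.21 (SE) as a log2 difference (edgeR adjusted p = 0.00111). Plk3, a stress-responsive kinase, differed by 1.16 ± 0.12 (SE) as a log2 difference (edgeR adjusted p = 0.000744). The groups of all 3 genes did not overlap. Egr3, named after its values were seen, rose as well, with a log2 fold change of 1.64 (adjusted p = 0.00803 by edgeR).

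Of 20 tested genes known as AP-1 targets in mesenchymal cells, 10 rose and 1, the bone sialoprotein gene Ibsp, fell, against 2.88% higher and 4.51% lower over all genes, with a median log2 fold change of 0.71 (12 higher and 3 lower without control replicate 3). These targets too were picked by hand when earlier results of these data were known. The contrast of their counts with all genes is therefore a description, and enrichment of AP-1 targets was not tested. The chemokine gene Ccl2 was at 13.5, 12.1 and 10.7 CPM in controls and 58.3, 55.1 and 55.9 CPM in knockouts, or 2.22 ± 0.12 (SE) as a log2 difference (edgeR adjusted p = 5.23e-05). Plaur, the urokinase receptor, rose by 1.46 ± 0.14 (SE) on the log2 scale (edgeR adjusted p = 0.000504). For both genes the knockouts were above all controls. The AP-1 target Mmp13, a collagenase of osteoblasts named after its values were seen, had a log2 fold change of -0.34 (adjusted p = 0.105 by edgeR). Many of the targets are also expressed by macrophages, of whose 15 markers 1 (Fcgr1) was called higher and 0 lower by edgeR. Over all genes edgeR called 2.88% higher and 4.51% lower. The marker counts were 3 and 0 by DESeq2 and 1 and 0 by limma-voom. At an unadjusted p under 0.05, 3 markers were higher and 1 lower, against 9.56% and 11.8% of all genes. Without control replicate 3, 4 were called higher and 1 lower.

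The remaining AP-1 family members and partners gave 0 calls among 14 tested by edgeR, with a median log2 fold change of -0.0098. At an unadjusted p under 0.05, against the same 9.56% and 11.8%, 3 were higher and 2 lower, DESeq2 called 1 higher and limma-voom 0. Smallest p-values belonged to the small Maf genes Maff, Mafk and Mafg, bZIP proteins without a transactivation domain, with log2 fold changes of 0.58, 0.42 and 0.41 (adjusted p = 0.0695, 0.109 and 0.185 by edgeR). Without control replicate 3, 3 of the 14 were called higher and 1 lower, the median was 0.13, and Maff, Mafk and Mafg passed at 0.53, 0.29 and 0.23 (edgeR adjusted p = 0.0287, 0.0145 and 0.0155). Among 25 kinases and SRF, ELK and MRTF factors upstream of the immediate early genes, 0 were called by edgeR, DESeq2 or limma-voom. In edgeR, 2.88% of all genes were called higher and 4.51% lower. At an unadjusted p under 0.05, 1 of the 25 was higher and 2 lower, against 9.56% and 11.8% of all genes, and the median was -0.058. The kinase genes Rps6ka5, Rps6ka2 and Map2k6 had the smallest p-values there, with log2 fold changes of -0.43, 0.34 and -0.44 (adjusted p = 0.0973, 0.131 and 0.231 by edgeR). In the fit without control replicate 3, 3 of the 25 were called higher and 1 lower, with Rps6ka5 at -0.39 and Rps6ka2 at 0.35 (edgeR adjusted p = 0.0322 and 0.0245).

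Of 16 feedback inhibitors of MAP kinase signaling, 1 rose and 1 fell, against 2.88% and 4.51% of all genes, with 8 higher and 2 lower at an unadjusted p under 0.05, against 9.56% and 11.8%, and 5 higher and 2 lower called without control replicate 3. Dusp6, an ERK phosphatase, was at 140, 125 and 123 CPM in controls and 170, 196 and 162 CPM in knockouts, or 0.45 ± 0.10 (SE) as a log2 difference (edgeR adjusted p = 0.0380), and it lost its call without control replicate 2 (0.42, adjusted p = 0.128) and without knockout replicate 1, 2 or 3 (0.48, 0.36 and 0.51). Spry1, an inhibitor of receptor tyrosine kinase signaling, was at 84.9, 66.9 and 72.3 CPM in controls and 42.2, 41.8 and 44.6 CPM in knockouts, or -0.80 ± 0.11 (SE) as a log2 difference (edgeR adjusted p = 0.00366). The antisense gene Gm42922 covers 24.4% of Spry1 exonic sequence. Dusp5, a nuclear ERK phosphatase, had a log2 fold change of 0.56 (edgeR adjusted p = 0.0912).

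Glucocorticoid-induced genes, listed because of the dexamethasone in the medium, split in direction, with 2 higher and 3 lower of 15 tested, against 2.88% and 4.51% of all genes, and a median of -0.049 (2 higher and 6 lower without control replicate 3). Sgk1, a kinase, rose by 0.66 on the log2 scale, with means of 174 ± 2.88 CPM in controls and 274 ± 16.7 CPM in knockouts (SD, n = 3 each, edgeR adjusted p = 0.00268). Angptl4, a secreted inhibitor of lipoprotein lipase, fell by 1.11 on the log2 scale (adjusted p = 0.00712 by edgeR). Lcn2, the lipocalin of the innate response, had 41, 24 and 36 counts in controls and 0, 0 and 2 in knockouts (adjusted p = 0.00468 by edgeR).

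Heat shock genes, whose products are chaperones, had 0 calls among 15 tested by edgeR and limma-voom and 1 higher with DESeq2. In edgeR, 2.88% of all genes were called higher and 4.51% lower. At an unadjusted p under 0.05, 3 heat shock genes were higher and 0 lower, against 9.56% and 11.8% of all genes. Hspd1, Hsp90aa1 and Hspa5, the 3 with the smallest p-values, had log2 fold changes of 0.31, 0.49 and 0.32 (adjusted p = 0.0839, 0.0903 and 0.118 by edgeR). In these 3 every knockout lay above every control, as in 15.0% of all genes tested. Without control replicate 3 these 3 were called higher, at 0.28, 0.63 and 0.24 (edgeR adjusted p = 0.0117, 0.00013 and 0.0139). The list's summed level was 3853 to 4081 CPM in controls and 4065 to 4271 CPM in knockouts, which overlap. Cell cycle genes summed to 463 to 582 CPM in controls and 365 to 410 CPM in knockouts, with 1 of 15 called lower and 0 higher by edgeR, and 11 lower and 0 higher at an unadjusted p under 0.05, against 11.8% and 9.56% of all genes (DESeq2 6 and 0, limma-voom 1 and 0, without control replicate 3 11 and 0). Against 4.51% lower and 2.88% higher over all genes, adipocyte markers were called lower in 6 of 9 tested, endothelial markers in 1 of 10 and osteoblast markers in 4 of 10, with 1 osteoblast marker higher and the osteocalcin gene Bglap under 1 CPM in every library. Mesenchymal markers were called in 5 of 15 in each direction. Neutrophil markers summed to 1.00 to 1.14 CPM in controls and 1.44 to 1.98 CPM in knockouts, and 6 of the 7 measured were under 1 CPM in every library. Of the 2 neutrophil markers tested, 1 (S100a8) was called higher by edgeR, DESeq2 and limma-voom, where edgeR called 2.88% of all genes higher. Any part of these marker differences in the rise of the immediate early genes was not tested.

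**Figure D4:**
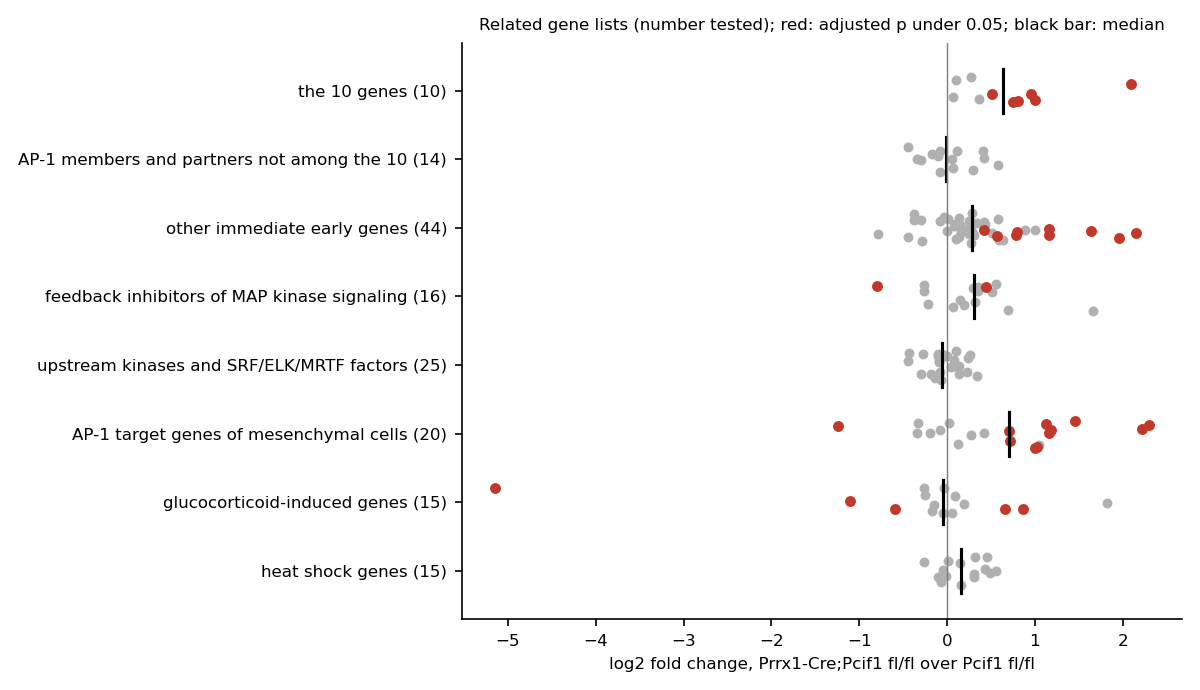
Log2 fold changes of every tested gene in the 10 genes and in the 7 related lists, with the number tested in parentheses, genes at an adjusted p under 0.05 in red and the median of each list as a black bar. Red points lie to the right of 0 for the 10 genes and the other immediate early genes, and mostly so for the AP-1 targets, and there are none for the AP-1 partners, the upstream factors and the heat shock genes.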

How the data were processed

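The deposited values are whole-number counts of reads per gene: per the labels and the study's methods, the authors aligned filtered paired-end reads of poly(A) RNA with HISAT2 against mm10. How reads were assigned to genes (software, gene models, strand) is not given in the sources used here. The authors did not normalize these counts. Of 20163 rows, 92 repeated an Ensembl ID with the same counts, and each ID was used once. The fit used edgeR 4.0.16 under R 4.3.3, with filterByExpr, TMM scaling, glmQLFit and glmQLFTest and no covariate, with Benjamini-Hochberg adjustment over all 13733 genes tested and calls at an adjusted p under 0.05. CPM values are scaled by TMM. Standard errors are the log2 fold change over the square root of F. No molecular identifiers are mentioned in the sources used here, so PCR copies may be counted as separate reads. Nothing in the labels says whether libraries came from separate mice, so p-values may measure technical spread. Chi-square values per gene between libraries of a genotype ran from 2.86 to 106, so no pair agreed within sampling noise. Gene positions, merged exons and overlaps come from GENCODE M21 (GRCm38, the same assembly as mm10) and promoters from RefSeq.

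The 10 genes, the lists and the marker genes were written by hand, and they were chosen with earlier results of these data known. The rule for naming took all 10 genes, Pcif1, the 3 genes of each related list with the smallest unadjusted p and the 5 genes most correlated with Fos. Of these, 1 AP-1 target is not reported here. The fits were tested on simulated counts with log2 changes of 2 in 200 genes, of which edgeR recovered 199, DESeq2 197 and limma-voom 198. Smaller changes, such as those of the 10 genes other than Egr1, and a library standing apart were not simulated. Alternatives were DESeq2 1.42.0, limma-voom (limma 3.58.1), RLE and total-count scaling, other filters, the replicate block, a fold threshold and leaving out each library. An exact permutation test of 3 against 3 libraries cannot go below p = 0.1, so none is given.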

Additional observations from a re-analysis of the deposited data

How the results depend on the processing

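The count of the 10 genes called higher was 6 with DESeq2, limma-voom, RLE or total-count scaling, no filter on low counts and a filter at a mean of 10 counts, and the 6 genes were the same. With the added threshold of a log2 fold change of 1, 1 of the 10 was called higher, 13 related genes higher and 3 lower, and 142 of all genes higher and 343 lower. Leaving out 1 library at a time gave 1 to 8 of the 10 higher and 0 to 0 lower, 17 to 48 related genes higher and 4 to 15 lower, and 148 to 1544 of all genes higher and 324 to 1447 lower, with the highest of each without control replicate 3. The number of genes called lower or higher in all was not moved by over 1.5 times in the other fits. With 1 library left out, Fosb ranged from -0.11 (without knockout replicate 2, a reversal) to 0.58 and Fosl2 from -0.015 (without control replicate 3, a reversal) to 0.13, both short of the threshold in every fit. Over the 10 genes and the other named list genes, 365 single-gene values kept direction and side of the threshold, 24 lost and 12 gained a call, and 2 reversed. In control replicate 3, 0 of the 10 genes were 2-fold higher with a pseudocount of 5 CPM, and against the mean of all 5 other libraries 0 were 2-fold higher, 1 was 2-fold lower and the log2 ratio of Egr1 turned from 1.08 to -0.87, since that mean includes the knockouts. The cause of the other changes was not tested.

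The genotypes share replicate numbers, but same-numbered libraries did not deviate together (r = 0.064, -0.050 and -0.0016 for numbers 1 to 3), so they were taken to share only a number. With the replicate block, 4 of the 10 genes were called higher (Atf3, Junb, Fos and Egr1), 18 related genes were higher and 6 lower, and 267 of all genes higher and 503 lower. Dusp6 also lost its call with the block (0.44, edgeR adjusted p = 0.0770). Not every library correlated best with its own number.

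Depth limits Fosb, with 22 to 53 counts a library, and Fosl1, with 47 to 116.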
